A study of Homo sapiens with 12 samples.

Results

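The genes described here handle foreign compounds: the cytochrome P450 (CYP) enzymes, the cytosolic glutathione transferases (GST), the ABC transporters that pump drugs out of cells, and a few receptors and partner enzymes. They were chosen by symbol, without the retinoic acid and sterol demethylase CYP genes and without 1 pseudogene that matched the pattern, which left 83 of the 28278 gene symbols in the count table (51 CYP genes, 18 GST genes, 7 transporters, 5 receptors or receptor partners, and the 2 enzymes POR and EPHX1). RNA was sequenced from cultures driven to motor neurons out of WA09-Islet1-GFP, a wild-type human embryonic stem cell line in which GFP follows the motor neuron transcription factor Islet1. Cultures received the organochlorine pesticide cis-chlordane or its solvent DMSO (control) for 16 hours and were then sorted on GFP. The sample labels give 10 µM cis-chlordane, while the methods of the study give another concentration. The 12 libraries form 4 groups of 3, namely the GFP-positive and the GFP-negative sorts, each from control and from treated cultures, and all come from this line.

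The libraries held 23414935 to 38347050 gene counts each. Levels are given as CPM, the usual counts scaled to library size, with TMM factors set over the 12 libraries, and values after ± are SDs over n = 3 libraries. Markers of neurons and motor neurons summed to 12664 to 16353 CPM in control GFP-positive and 6323 to 6961 CPM in control GFP-negative libraries, and markers of neural progenitors to 1468 to 1765 and 2689 to 4104 CPM, so that the GFP-negative fraction held neuronal as well as progenitor RNA. TUBB3 and NES gave most of these sums, with control means of 9508 and 1498 CPM in GFP-positive and 5334 and 2632 CPM in GFP-negative cells. Other markers differed more between the sorts. ISL1 averaged 65.7 CPM in control GFP-positive and 2.57 CPM in control GFP-negative libraries, and SOX2 13.8 and 109 CPM. After treatment the neuronal sums were 5531 to 7425 CPM in GFP-positive and 3551 to 4502 CPM in GFP-negative libraries. The progenitor sums were then 998 to 1184 and 1262 to 1707 CPM. ISL1, the gene behind the sort, averaged 12.0 and 0.548 CPM in treated GFP-positive and GFP-negative libraries, and SOX2 13.2 and 113 CPM. The progenitor gene PAX6 went from 7.93 to 30.4 CPM in GFP-positive cells. Markers of hepatocytes, the liver cells in which many of these enzymes are best known, summed to at most 8.10 CPM in any library. Control GFP-negative replicate 3 stood apart: a list of 10 blood leukocyte genes, chosen after its values were seen, summed to 413.9 CPM there and to between 2.11 and 23.2 CPM in the other 11 libraries. Tested fold changes that use this library are therefore also given without it.

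Foreign compounds are cleared in steps. CYP enzymes of families 1 to 3 insert oxygen into them with electrons from POR, EPHX1 opens the epoxides that can result, GST enzymes attach glutathione to reactive products, and ABC transporters export drugs and conjugates. The receptors AHR, PXR (NR1I2) and CAR (NR1I3) sense foreign compounds and switch on many of these genes in liver, where CYP1A1 is the classical target of AHR, and CYP3A4, CYP2B6 and ABCB1 are targets of PXR or CAR. Other CYP families mostly make or break down the body's own fatty acids, sterols, steroid hormones and vitamin D.

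Most of the drug-metabolizing CYP genes had no counts or were under 1 CPM in some library of every group. A lack of counts was not particular to the chosen genes, since 5688 of all 28278 gene symbols had none in any library. No count in any library was found for 18 of the 83 genes: CYP2A7, CYP2A13, CYP2D6, CYP2F1 and CYP3A4 of families 1 to 3, CYP4B1, CYP4F8 and CYP4F11 of the fatty acid family, CYP7A1 and CYP8B1 of bile acid synthesis, CYP11B1, CYP11B2, CYP17A1 and CYP21A2 of steroid hormone synthesis, and GSTA2, GSTA5, GSTT2 and GSTT4. A further 12 had at most 3 counts in every library, among them CYP1A2, CYP2A6, CYP2B6, CYP2C19, CYP3A7, CYP4F2, CYP4F12, CYP19A1 (aromatase), CYP24A1, GSTA3 and the receptor NR1I3. Of the remaining 53, 17 were above 3 counts in some library but under 1 CPM in at least 1 library of every group, namely CYP1B1, CYP2C18, CYP2J2, CYP2W1, CYP3A43, CYP4A22, CYP4F3, CYP4F22, CYP4Z1, CYP7B1, CYP39A1, GSTA1, GSTM5, ABCC2, ABCC3, ABCG2 and NR1I2. With few counts the true level of such genes is not resolved at this depth, and 3 counts corresponded to 0.0794 to 0.129 CPM depending on the library. Of these, CYP4F3 was at 4.91 CPM in control GFP-negative replicate 3 and at most 0.129 CPM elsewhere, and CYP1B1 was at 1.48 CPM in that library and at most 0.950 CPM elsewhere. NR1I2, the receptor PXR, did not exceed 0.300 CPM in any library. Some genes with no count have near-identical copies, such as GSTT2 (GSTT2B, also 0 CPM in every library) and CYP2D6 (CYP2D7, at most 0.256 CPM). How reads that fit both copies were counted is not given in the sources used here. A count of 0 for such a gene therefore does not show that it was silent.

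The other 36 genes had at least 1 CPM in every library of at least 1 group, 26 of them in all 4 groups. The numbers were 32 in control GFP-positive, 34 in treated GFP-positive, 30 in control GFP-negative (31 without replicate 3) and 31 in treated GFP-negative cells. By class, 6 of 22 CYP genes of families 1 to 3 were expressed by this measure (CYP1A1, CYP2C8, CYP2E1, CYP2S1, CYP2U1 and CYP3A5), against 11 of 18 GST genes and 4 of 7 transporters. CYP2R1, a family 2 gene that acts on vitamin D, was classed with the vitamin genes and is not among these 22. Per kilobase of exon, a rough scale for comparing levels of different genes, GSTP1 led in control GFP-positive cells with 311 ± 66.9 CPM per kb. It was followed by GSTA4 (49.1 ± 5.27 CPM per kb), POR (28.0 ± 4.46 CPM per kb), GSTO1 (19.3 ± 2.70 CPM per kb) and GSTM3 (12.4 ± 1.91 CPM per kb). GSTT1, at 13.6 to 18.4 CPM in these libraries, had no exon length here and has no place in this order. The length used was the union of all annotated exons of a gene, not that of an expressed transcript. It was 1764 bases for GSTP1 and 1691 for GSTO1, but 9116 for GSTM2 and 8365 for GSTZ1. The order therefore depends on the annotation as well as on the counts. The highest CYP gene was CYP4X1, an orphan member of the fatty acid family known from brain, with 4.68 ± 0.174 CPM per kb, and ABCC5 was the highest transporter with 6.39 ± 0.807 CPM per kb. ABCB1 stood at 0.210 ± 0.0251 CPM per kb in these cells.

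**Figure D1:**
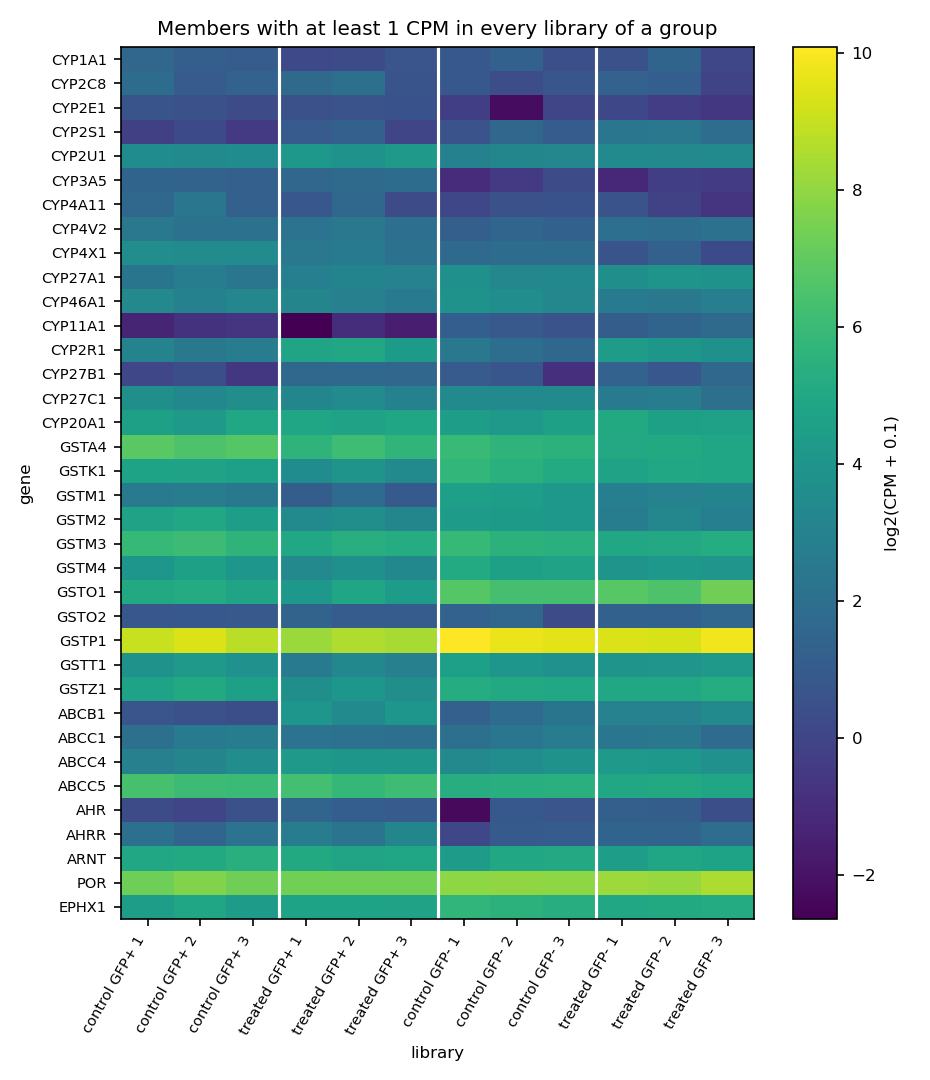
Each row is one of the 36 genes with at least 1 CPM in every library of a group and each column is a library, with colour giving log2(CPM + 0.1). The GSTP1 row is the brightest, at 291 CPM or more in every library, whereas GSTO2 is dark at 1.16 to 2.88 CPM, and the ABCB1 row is brighter in the treated libraries, where it reads 7.81 to 16.4 CPM against 1.22 to 4.83 CPM in controls.

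The effect of cis-chlordane was tested separately in either sort with edgeR's quasi-likelihood test, and a gene was called where its Benjamini-Hochberg adjusted p over all genes tested was under 0.05 and its fold change at least 2. In GFP-positive cells 39 of the 83 genes passed the filter on low counts. Among them 7 were called higher (ABCB1, CYP2R1, ABCG2, CYP27B1, ABCC2, CYP2S1 and AHR) and 3 lower (GSTM1, GSTM2 and CYP4X1). Over all 15333 genes tested, 12.8% were called higher and 11.2% lower. In GFP-negative cells 40 were tested, of which 3 were called higher (CYP2R1, ABCB1 and CYP2S1) and 4 lower (GSTM1, GSTM2, CYP4X1 and CYP46A1), where 8.59% of all 15513 genes were called higher and 9.75% lower. The shares of called members are close to these backgrounds, so that what follows describes individual genes and classes. At adjusted p under 0.05 with no limit on the fold change, 11 were higher and 12 lower in GFP-positive cells (26.5% and 24.4% of all genes), and 3 were higher and 9 lower in GFP-negative cells (15.3% and 16.2% of all genes). In these bulk samples fewer cells of a type and less RNA per cell cannot be told apart. Of 9 neuron and motor neuron markers, 7 were called lower after treatment in GFP-positive and 5 in GFP-negative cells. Of 8 progenitor markers, 3 were called lower and 1 higher in GFP-positive cells, and 6 lower and 0 higher in GFP-negative cells. The part of such shifts in the results below was not tested.

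**Figure D2:**
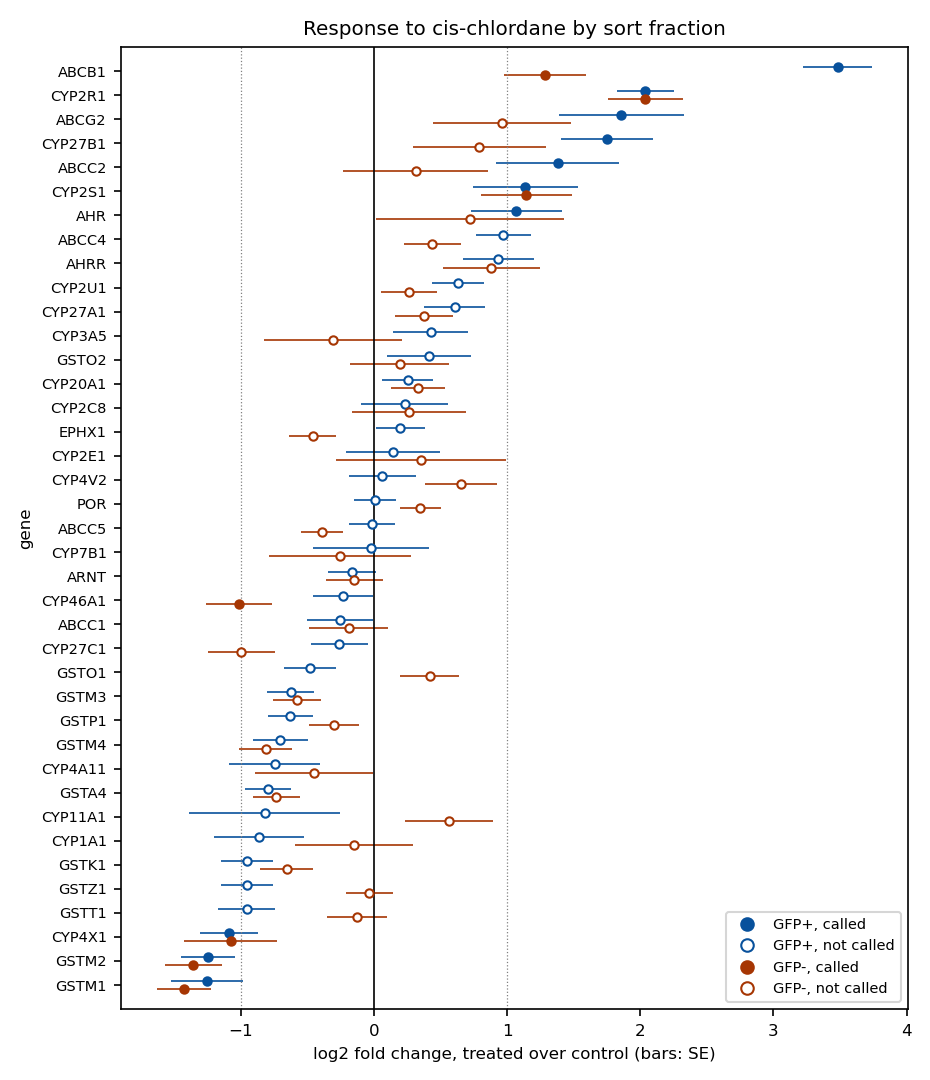
Points give the log2 fold change of treated over control cells and bars its standard error, for the members tested in both fractions, with filled points for called genes and dotted lines at a change of 2-fold. ABCB1 lies far to the right in GFP-positive cells (3.48) and less so in GFP-negative cells (1.29), CYP2R1 lies at 2.04 in both, and GSTM1 and GSTM2 are the lowest points.

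ABCB1 encodes P-glycoprotein, the efflux pump of the blood-brain barrier and of many drug-resistant tumours, and lies on chromosome 7 from 87503017 to 87713323 of hg38 on the minus strand. It was at 1.53, 1.30 and 1.22 CPM in the control GFP-positive libraries and at 16.4, 10.3 and 16.4 CPM in the treated ones. All treated libraries lay above all controls, and the log2 fold change was 3.48 (SE, its standard error, 0.26, with an adjusted p of 2.19e-13 in edgeR). In GFP-negative cells it was at 2.33, 3.41 and 4.83 CPM in controls and at 7.81, 8.03 and 10.3 CPM after treatment, again without overlap. There the log2 fold change was 1.29 (SE 0.31, adjusted p = 0.0113 from edgeR). It was 1.57 without control replicate 3, and the adjusted p rose to 0.052 without control replicate 2 and to 0.0617 without treated replicate 3. ABCB1 is also an endothelial gene, and endothelial markers summed to 5.00 to 5.21 CPM in control and 8.19 to 10.4 CPM in treated GFP-positive libraries, and to 24.5 to 37.5 and 88.8 to 131 CPM in GFP-negative ones. Of the 7 markers, ERG was at the floor in every library and KDR alone was called higher, with 7.30 to 9.69 and 85.8 to 126.4 CPM in treated GFP-positive and GFP-negative libraries. CLDN5 fell by 2.5 and 2.69 on the log2 scale in GFP-positive and GFP-negative cells, CDH5 fell by 2.69 in GFP-positive cells and TEK fell by 2.25 in GFP-negative cells. The leukocyte list summed to 2.11 to 3.91 CPM in control and 14.9 to 21.1 CPM in treated GFP-positive libraries, of which CD68 alone gave 12.2 to 16.9 CPM in the treated ones. The part of other cell types in the ABCB1 result was not tested.

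ABCG2, another broad drug exporter, was at 0.373, 0.348 and 0.192 CPM in control and 1.02, 0.716 and 1.43 CPM in treated GFP-positive cells, with a log2 fold change of 1.86 (SE 0.47, adjusted p = 0.00128). ABCC2, which exports conjugates into bile in liver, was at 0.559, 0.232 and 0.704 CPM in controls and at 1.5, 0.601 and 1.59 CPM after treatment. Its groups overlapped, its log2 fold change was 1.38 (SE 0.46, adjusted p = 0.0128), and the adjusted p was 0.119 without control GFP-positive replicate 2, 0.0546 without treated replicate 1 and 0.0679 in the fit of all 12 libraries. ABCC4, an exporter of cyclic nucleotides and prostaglandins, passed the adjusted p but stayed under a 2-fold change, at 7.27, 8.78 and 11.9 CPM in control and 18.3, 16.9 and 17.2 CPM in treated GFP-positive cells (log2 fold change 0.97, SE 0.21, adjusted p = 0.000187). It was called when control replicate 3 was left out (1.18) or when library size alone was used for scaling (1.08). In GFP-negative cells the log2 fold changes were 0.96 for ABCG2 (adjusted p = 0.188), 0.31 for ABCC2 (0.696) and 0.44 for ABCC4 (0.149), and none was called. Without control replicate 3 they were 1.49 (0.0605), 1.04 (0.153) and 0.58 (0.0669).

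ABCC5, the transporter with the highest level per kilobase in control GFP-positive cells, was at 83.1, 68.7 and 66.1 CPM in control and 78.3, 57.4 and 70.1 CPM in treated GFP-positive cells, and at 38.4 to 43.1 and 30.0 to 33.9 CPM in GFP-negative cells. ABCC1 was at 3.40 to 6.53 CPM in all 12 libraries. ABCC3 had at most 9 counts in any library, and was not tested. Of the 7 transporters 6 were tested, which gave 3 calls in GFP-positive cells and 1 in GFP-negative cells, each for a higher level. Of all genes, 12.8% were called higher in GFP-positive and 8.59% in GFP-negative cells. The medians over the 6 tested were 1.18 and 0.38 on the log2 scale, where the median of all genes was 0.03 and -0.01.

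**Figure D3:**
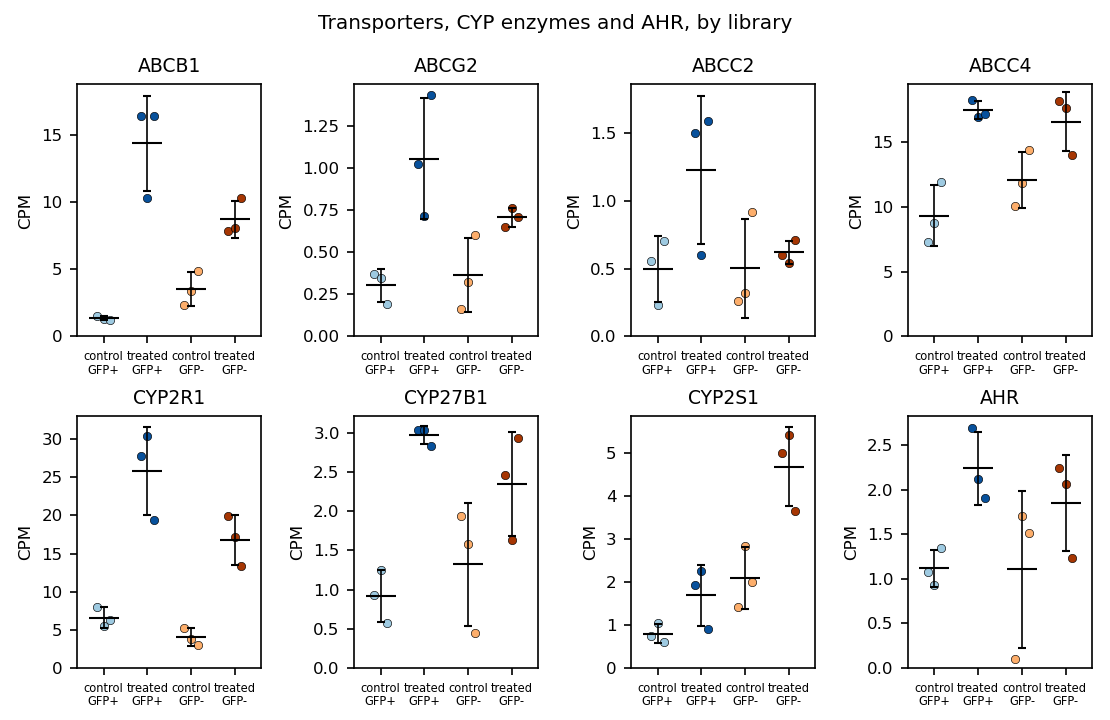
Each panel shows one gene, with a point for each library, a line at the mean of 3 libraries, bars of 1 SD and an axis in CPM that starts at 0. In ABCB1, CYP2R1, ABCG2 and CYP27B1 every treated GFP-positive library lies above every control GFP-positive library, while the points of CYP2S1 and ABCC2 overlap.

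CYP2R1 and CYP27B1 encode the enzymes that turn vitamin D, in sequence, into 25-hydroxyvitamin D and the active hormone. CYP2R1 (chromosome 11, 14877440 to 14892231, minus strand) was at 8.05, 5.45 and 6.30 CPM in control and 27.8, 30.4 and 19.4 CPM in treated GFP-positive cells. In GFP-negative cells it was at 5.29, 3.82 and 2.95 CPM in control and 19.9, 17.2 and 13.3 CPM in treated libraries. In both fractions the groups stood well apart, with log2 fold changes of 2.04 (SE 0.22, adjusted p = 9.95e-10) and 2.04 (SE 0.28, adjusted p = 0.000707). It was called under each of the alternatives tried, and the GFP-negative value was 1.86 without control replicate 3. CYP27B1 was at 0.932, 1.25 and 0.576 CPM in control and 3.03, 3.03 and 2.83 CPM in treated GFP-positive cells, a log2 fold change of 1.75 (SE 0.34, adjusted p = 6.35e-05). In GFP-negative cells it was at 1.94, 1.59 and 0.439 CPM in controls and 2.46, 1.64 and 2.94 CPM after treatment, groups that overlapped (log2 fold change 0.79, adjusted p = 0.256, and 0.39 without control replicate 3). CYP24A1, the enzyme that breaks the hormone down, had at most 3 counts in every library.

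Among the CYP genes classed here as families 1 to 3, which oxidize foreign compounds, CYP2S1 was called in both fractions. The vitamin D enzyme CYP2R1, a family 2 gene by its symbol, is not in that class. It was at 0.746, 1.04 and 0.608 CPM in control and 1.92, 2.26 and 0.900 CPM in treated GFP-positive cells, with overlap and a log2 fold change of 1.14 (SE 0.40, adjusted p = 0.0161). In GFP-negative cells it was at 1.41, 2.85 and 2.00 CPM in controls and 5.01, 5.42 and 3.65 CPM after treatment, without overlap (log2 fold change 1.14, SE 0.34, adjusted p = 0.0293). The call was lost without control GFP-positive replicate 3, treated GFP-positive replicate 1 or 2, control GFP-negative replicate 1, or treated GFP-negative replicate 1 or 2, with adjusted p for CYP2S1 of 0.0559 to 0.104 and 0.0606 to 0.110 in GFP-positive and GFP-negative cells. Without control GFP-negative replicate 3 the GFP-negative value was 1.11. CYP1A1, the classical AHR target, was at 2.87, 2.23 and 1.98 CPM in control and 1.02, 1.15 and 1.54 CPM in treated GFP-positive cells. All treated values lay below all controls (log2 fold change -0.86, SE 0.34, adjusted p = 0.0321), under the 2-fold limit except without treated GFP-positive replicate 3 (-1.05). In GFP-negative cells CYP1A1 was at 1.28 to 2.41 CPM in control and 0.956 to 2.65 CPM in treated libraries. CYP2U1, which hydroxylates long-chain fatty acids and is known from brain, was at 11.7, 10.8 and 11.5 CPM in control and 17.8, 14.4 and 18.1 CPM in treated GFP-positive cells (log2 fold change 0.63, SE 0.20, adjusted p = 0.0076). CYP2C8, CYP2E1 and CYP3A5 were at 0.117 to 4.12 CPM over all libraries and were not called after treatment in either fraction. CYP2E1 shares 22.9% of its annotated exon bases with SYCE1 on the opposite strand.

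Outside those families, CYP4X1 fell in both fractions. It was at 11.9, 11.3 and 11.1 CPM in control and 5.34, 5.67 and 4.37 CPM in treated GFP-positive cells, and at 3.15, 3.46 and 3.51 CPM in control and 1.47, 2.33 and 1.06 CPM in treated GFP-negative cells. The groups did not overlap in either fraction, and the log2 fold changes were -1.09 (SE 0.22, adjusted p = 7.73e-05) and -1.08 (SE 0.35, adjusted p = 0.0415). Both lie close to the 2-fold limit: in GFP-positive cells CYP4X1 was at -0.99 without treated replicate 3 and -0.98 with scaling by library size alone, and in GFP-negative cells its adjusted p was 0.0506, 0.126, 0.146 and 0.123 without control replicate 1, control replicate 2, treated replicate 1 and treated replicate 3. The GFP-negative call of CYP4X1 was also lost with no filter on low counts (adjusted p = 0.0607) and with the replicate number as a block (0.0519), and its value was -1.05 without control replicate 3. CYP46A1, the cholesterol 24-hydroxylase by which neurons rid themselves of cholesterol, was at 15, 11.9 and 9.46 CPM in control and 6.0, 5.31 and 6.94 CPM in treated GFP-negative cells (log2 fold change -1.01, SE 0.25, adjusted p = 0.0129). In GFP-positive cells it was at 10.1, 7.73 and 9.25 CPM in controls and 8.91, 7.33 and 5.75 CPM after treatment, with overlap. The GFP-negative call for CYP46A1 was lost without control replicate 1 (-0.83) and treated replicate 2 (-0.92), and without control replicate 2 (adjusted p = 0.0505) and treated replicate 1 (0.0606). It was also lost with the replicate number as a block (-0.997) and in the fit of all 12 libraries (-0.993), and the value was -1.16 without control replicate 3.

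CYP27A1, the mitochondrial sterol 27-hydroxylase, was at 4.81, 6.31 and 4.99 CPM in control and 7.02, 8.5 and 7.92 CPM in treated GFP-positive cells (log2 fold change 0.61, SE 0.23, adjusted p = 0.0261, not called). CYP27C1, which desaturates retinoids, was at 10.6, 10.9 and 10.7 CPM in control and 5.83, 6.54 and 4.0 CPM in treated GFP-negative cells, with a log2 fold change of -0.996, just short of the 2-fold limit (SE 0.25, adjusted p = 0.0145). CYP27C1 passed the limit under 8 alternatives, with -1.0003 without control replicate 3, -1.02 with the replicate number as a block and -1.14 without treated replicate 2. In GFP-positive cells CYP27C1 was at 9.64 to 13.0 CPM in control and 7.65 to 11.2 CPM in treated libraries. CYP20A1, an orphan enzyme, was at 18.4 to 33.8 CPM in all libraries, and CYP4V2 was at 2.2 to 5.44 CPM. CYP4A11 was at 0.531 to 4.95 CPM and CYP11A1, which starts steroid hormone synthesis, at 0.0600 to 3.33 CPM. CYP4A11 is nearly identical to CYP4A22, and how reads that fit both were counted is not given in the sources used here.

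The GST genes that were expressed mostly had lower levels after treatment. Their summed level was 733 to 1014 CPM in control and 447 to 593 CPM in treated GFP-positive libraries, without overlap, and 1060 to 1512 and 901 to 1240 CPM in control and treated GFP-negative libraries, with overlap. All 11 tested in GFP-positive cells except GSTO2 had an adjusted p under 0.05 for a lower level, 10 in all, and 2 of them, GSTM1 and GSTM2, passed the 2-fold limit. Of all genes, 24.4% were lower at that adjusted p and 11.2% were called lower. The median log2 fold change of the 11 was -0.80 where that of all genes was 0.03. In GFP-negative cells 6 of 11 had an adjusted p under 0.05 for a lower level (4 or 5 when any of 4 single libraries was left out, and 2 without treated replicate 1), with a median of -0.58 against -0.01 for all genes. There 16.2% of all genes were lower at that adjusted p.

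GSTM1 and GSTM2 are mu-class enzymes with genes on the plus strand of chromosome 1. The annotated interval of GSTM1 (109687814 to 109709039) lies within that of GSTM2 (109668022 to 109709551). GSTM1 was at 6.11, 6.66 and 5.60 CPM in control and 2.04, 3.44 and 1.88 CPM in treated GFP-positive cells, and at 23.5, 21.5 and 17.6 CPM in control and 7.17, 7.89 and 8.56 CPM in treated GFP-negative cells. GSTM2 was at 25.6, 31.9 and 22.2 CPM in control and 10.5, 12.6 and 8.95 CPM in treated GFP-positive cells, and at 20.9, 19.4 and 17.4 CPM in control and 6.43, 9.27 and 7.15 CPM in treated GFP-negative cells. Both genes were lower in all treated libraries than in any control of their fraction. The log2 fold changes in GFP-positive cells were -1.25 for GSTM1 (SE 0.27, adjusted p = 0.000243) and -1.25 for GSTM2 (SE 0.20, adjusted p = 3.69e-06). In GFP-negative cells they were -1.43 (SE 0.20, adjusted p = 0.000798) and -1.36 (SE 0.22, adjusted p = 0.00142), and -1.54 and -1.42 without control replicate 3. All 14 alternatives tried kept these calls. The mu-class genes resemble one another closely, and 22.3% of the exon bases of GSTM1 are also annotated as exon of GSTM2, so the split of reads between them is uncertain. The sum over GSTM1, GSTM2 and GSTM4 does not depend on how counted reads were divided among them. It was 44.1 to 62.2 CPM in control and 20.5 to 29.4 CPM in treated GFP-positive libraries. In GFP-negative libraries it was 60.8 to 79.1 and 28.7 to 34.7 CPM. Any reads left uncounted because they fit several genes would be missing from this sum too, and how they were handled is not given in the sources used here.

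GSTP1, the pi-class enzyme, took 60.4 to 72.0% of all GST counts in every library. It was at 526, 676 and 443 CPM in control and 291, 382 and 341 CPM in treated GFP-positive cells (log2 fold change -0.63, SE 0.17, adjusted p = 0.00208), and at 1086, 839 and 750 CPM in control and 686, 627 and 893 CPM in treated GFP-negative cells, which overlapped. GSTA4, which detoxifies the lipid peroxidation product 4-hydroxynonenal, was at 113, 91.2 and 106 CPM in control and 49.8, 69.7 and 50.6 CPM in treated GFP-positive cells (log2 fold change -0.80, SE 0.17, adjusted p = 0.000211). In GFP-negative cells GSTA4 was at 62.4, 49.6 and 46.4 CPM and then 32.8, 34.2 and 29.7 CPM (log2 fold change -0.73, SE 0.18, adjusted p = 0.0112). In GFP-positive cells the log2 fold changes of GSTK1, GSTZ1 and GSTT1 lay just inside the 2-fold limit at -0.95, -0.95 and -0.96 (adjusted p = 0.000125, 0.000115 and 0.000328), and all 3 passed it without control replicate 3, without treated replicate 2 or in the fit of all 12 libraries. GSTM3 and GSTM4 were at -0.62 and -0.70 in GFP-positive and -0.58 and -0.81 in GFP-negative cells, each with an adjusted p under 0.05 in both fractions. Without control GFP-negative replicate 3 the GFP-negative values were -0.82 for GSTA4, -0.68 for GSTM3 and -0.87 for GSTM4. GSTO1 was at 33.6, 36.7 and 27.7 CPM in control and 17.7, 28.4 and 20.9 CPM in treated GFP-positive cells, with overlap (log2 fold change -0.48, adjusted p = 0.038 in edgeR). In GFP-negative cells GSTO1 did not fall, at 107, 80.6 and 80.1 CPM in control and 111, 92.8 and 160 CPM in treated libraries, with overlap. GSTO2 was at 1.16 to 2.88 CPM in all libraries.

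**Figure D4:**
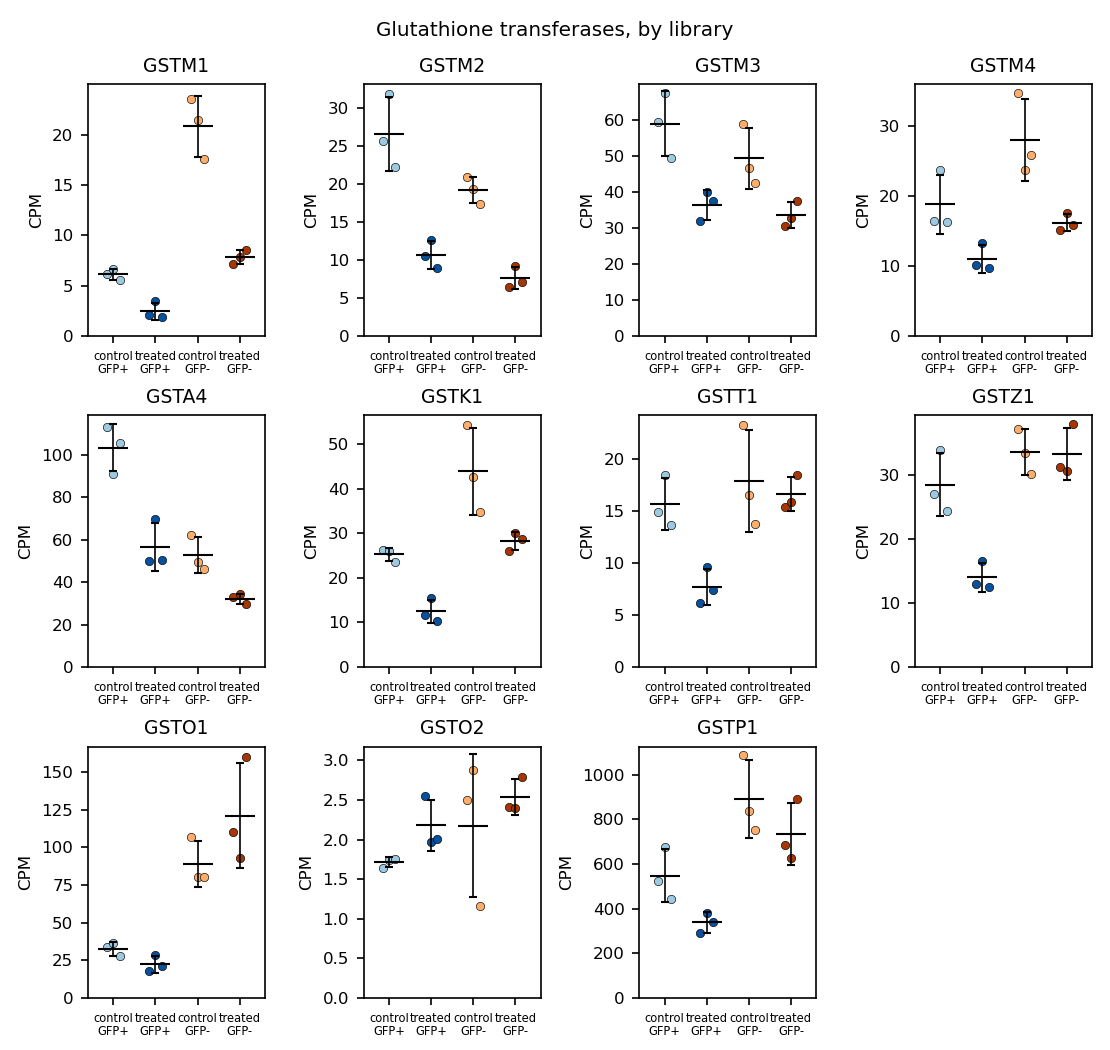
Each panel shows one GST gene, with a point for each library, a line at the mean of 3 libraries, bars of 1 SD and an axis in CPM that starts at 0. GSTM1, GSTM2, GSTM3, GSTM4, GSTA4 and GSTK1 are lower in treated libraries of both fractions, while GSTZ1 and GSTT1 are lower in treated GFP-positive libraries, at 12.4 to 16.6 and 6.15 to 9.62 CPM, and overlap with their controls in GFP-negative ones.

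AHR, the receptor of dioxin-like compounds, was at 1.08, 0.927 and 1.34 CPM in control and 2.70, 2.12 and 1.91 CPM in treated GFP-positive cells, without overlap (log2 fold change 1.07, SE 0.34, adjusted p = 0.00923). The call for AHR was lost without control replicate 2 (0.94), without treated replicate 1 (0.91), in the fit of all 12 libraries (adjusted p = 0.178) and after removal of the trend with GC content (0.67). In GFP-negative cells AHR was at 0.0985, 1.70 and 1.52 CPM in controls and 2.24, 2.07 and 1.24 CPM after treatment, with overlap (log2 fold change 0.72, adjusted p = 0.475, and 0.99 without control replicate 3). AHRR, the repressor that AHR itself induces, was at 3.91, 2.72 and 4.51 CPM in control and 6.60, 4.69 and 8.98 CPM in treated GFP-positive cells. Its log2 fold change of 0.93 (SE 0.27, adjusted p = 0.00371) stayed under the limit, which it passed without control replicate 3 (1.09) or treated replicate 2 (1.12), with scaling by library size alone (1.04) and with the GC trend removed (1.25). In GFP-negative cells AHRR was at 0.952, 1.82 and 2.00 CPM and then 2.68, 2.58 and 3.65 CPM (log2 fold change 0.88, adjusted p = 0.0918), and without control replicate 3 it was called (1.07, adjusted p = 0.0488). ARNT, the partner of AHR, was at 20.7 to 41.0 CPM in all libraries with overlap in both fractions. POR was at 154 to 206 CPM in GFP-positive libraries of both treatments and at 240 to 251 CPM in control and 281 to 366 CPM in treated GFP-negative libraries. EPHX1 was at 20.3 to 29.1 CPM in GFP-positive libraries of both treatments and at 39.3 to 53.6 and 31.9 to 36.9 CPM in control and treated GFP-negative libraries. Neither POR nor EPHX1 was called after treatment.

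The control libraries show how the genes differ between the fractions without treatment. Of 40 genes tested, 4 were higher in GFP-positive than in GFP-negative cells (CYP3A5, CYP4X1, CYP4A11 and AHRR) and 7 lower (CYP11A1, GSTM1, GSTO1, ABCB1, CYP2S1, CYP27A1 and EPHX1), where 7.47% of all genes were higher and 15.3% lower. Without control GFP-negative replicate 3 the counts were 5 and 8, with CYP2E1 (log2 fold change 1.57, adjusted p = 0.032) and GSTK1 (-1.02) added. CYP4X1 was at 11.1 to 11.9 CPM in GFP-positive and 3.15 to 3.51 CPM in GFP-negative controls (log2 fold change 1.65, SE 0.21, adjusted p = 0.000174). CYP3A5, at 2.30 to 2.68 and 0.394 to 1.16 CPM, had a log2 fold change of 1.70 (SE 0.42, adjusted p = 0.00953), and 2.22 without control GFP-negative replicate 3. GSTM1 was lower in GFP-positive cells by a log2 fold change of -1.87 (SE 0.20, adjusted p = 5.01e-05), GSTO1 by -1.55 (SE 0.18, adjusted p = 8.43e-05) and CYP11A1 by -2.13 (SE 0.39, adjusted p = 0.00177). ABCB1 was lower by -1.49 (SE 0.35, adjusted p = 0.00704), and by -1.17 without control GFP-negative replicate 3. Without that library CYP4X1 was at 1.70, GSTM1 at -1.96, GSTO1 at -1.61 and CYP11A1 at -2.24. GSTA4 was the GST gene that was higher in GFP-positive cells at an adjusted p under 0.05, at 91.2 to 113 against 46.4 to 62.4 CPM (log2 fold change 0.86, adjusted p = 0.00201, and 0.80 without control GFP-negative replicate 3). Leaving out a library ended the calls of AHRR (control replicates 1 and 3 of GFP-positive and 1 and 2 of GFP-negative cells, with log2 fold changes of 0.85 to 1.25 for AHRR), CYP2S1 (GFP-positive replicates 1 and 3 and GFP-negative replicate 2, -1.43 to -1.17), EPHX1 (GFP-positive replicate 3 and GFP-negative replicate 1, both -0.95), CYP27A1 (GFP-negative replicate 1, -0.94) and CYP4A11 (GFP-positive replicate 2, 1.01).

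Whether the response to cis-chlordane differed between the fractions was tested as the interaction of treatment and sort fraction over all 12 libraries. Of 41 genes tested, 1 had a larger response in GFP-positive cells at an adjusted p under 0.05 and 0 had a smaller one, where 0.968% and 1.22% of all 16226 genes did. The 1 was ABCB1, whose log2 response was larger in GFP-positive cells by 2.10 (SE 0.39, adjusted p = 0.0113 from edgeR). It was called under each alternative, with values of 1.82 to 2.39, the lowest of them without control GFP-negative replicate 3. At an unadjusted p under 0.05, 3 members had a larger and 4 a smaller response in GFP-positive cells. Among the latter were GSTZ1 (-1.01, SE 0.26, adjusted p = 0.0536), GSTO1 (-0.99, SE 0.31, adjusted p = 0.119) and GSTT1 (-0.92, SE 0.31, adjusted p = 0.152), at -0.93, -0.91 and -0.76 without control GFP-negative replicate 3. Libraries of the 2 sorts that share treatment and number deviated together and were taken as sorts of one culture. With the culture as a block all 3 were called, GSTZ1 at -1.0 (adjusted p = 0.0155), GSTO1 at -0.98 (0.0407) and GSTT1 at -0.96 (0.0387), while ABCB1 was at 2.04 (0.00304). DESeq2 called 1 of them, GSTZ1 (-0.94, adjusted p = 0.0106).

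The 250 bases before a transcription start listed in RefSeq (GRCh38.p14) were taken for 62 of the 83 genes, with 1 window per gene. The CYP2R1 window lies within the annotated interval given above for CYP2R1, so it does not precede the outermost annotated start. Windows are shown for genes that moved together or lead their class. These are ABCB1 and CYP2R1, which rose in both fractions, GSTM1 and GSTM2, which fell in both, and GSTP1, the most abundant. Capitals mark matches on either strand to the core sequence of the AHR element (GCGTG) or of the antioxidant element bound by NRF2 (TGACNNNGC), and the motifs do not overlap in the sequences shown. They lie at chr7:87713296-87713545 (minus strand, 39.2% GC) for ABCB1, chr11:14891672-14891921 (minus strand, 69.6% GC) for CYP2R1, chr1:109687567-109687816 (plus strand, 71.2% GC) for GSTM1, chr1:109667807-109668056 (plus strand, 65.6% GC) for GSTM2 and chr11:67583562-67583811 (plus strand, 74.8% GC) for GSTP1, and read 5′ to 3′ on the strand of the gene.
ABCB1: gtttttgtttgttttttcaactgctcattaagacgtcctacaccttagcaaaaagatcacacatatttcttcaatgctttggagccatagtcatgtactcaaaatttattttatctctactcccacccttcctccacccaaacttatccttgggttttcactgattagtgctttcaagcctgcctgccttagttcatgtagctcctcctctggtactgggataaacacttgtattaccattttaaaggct
CYP2R1: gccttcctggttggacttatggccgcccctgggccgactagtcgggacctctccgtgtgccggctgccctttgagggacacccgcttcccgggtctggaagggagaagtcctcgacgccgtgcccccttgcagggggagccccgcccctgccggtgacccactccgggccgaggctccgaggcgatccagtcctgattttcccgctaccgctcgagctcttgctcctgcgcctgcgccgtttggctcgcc
GSTM1: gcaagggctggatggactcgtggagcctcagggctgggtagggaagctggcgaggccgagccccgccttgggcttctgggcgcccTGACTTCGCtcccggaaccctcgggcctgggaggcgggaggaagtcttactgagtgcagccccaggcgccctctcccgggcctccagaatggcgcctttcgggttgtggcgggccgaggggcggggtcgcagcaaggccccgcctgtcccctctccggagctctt
GSTM2: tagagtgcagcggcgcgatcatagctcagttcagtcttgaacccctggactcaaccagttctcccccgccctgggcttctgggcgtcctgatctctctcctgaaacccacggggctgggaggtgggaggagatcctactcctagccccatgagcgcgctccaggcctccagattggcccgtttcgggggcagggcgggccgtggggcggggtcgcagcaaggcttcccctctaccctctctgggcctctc
GSTP1: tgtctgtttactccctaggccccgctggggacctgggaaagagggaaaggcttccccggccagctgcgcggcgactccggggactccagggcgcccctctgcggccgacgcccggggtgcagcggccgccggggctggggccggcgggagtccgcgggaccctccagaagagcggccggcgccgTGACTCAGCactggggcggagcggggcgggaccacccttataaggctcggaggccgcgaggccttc
The AHR core occurred in 13 of the 62 windows (21.0%) against 32.2% of 35116 windows of all genes, and the antioxidant core in 11 (17.7%) against 10.9%. Neither was in the windows of the 6 of 7 genes called higher in GFP-positive cells that had one. Of the 3 called lower, the GSTM1 window held 1 antioxidant core and the GSTM2 and CYP4X1 windows held neither core. CYP1A1 and AHRR each held 1 AHR core, GSTP1 and GSTA4 each 1 antioxidant core, and ABCC4 2 AHR cores and 1 antioxidant core. These are matches of letters in a short window, and other starts and other parts of the genes were not searched.

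Genes that work beside these enzymes moved in both directions, and their counts stand against 12.8% of all genes called higher and 11.2% lower in GFP-positive cells, and 8.59% and 9.75% in GFP-negative cells. Of 15 tested genes that supply glutathione or encode membrane-bound GST, 5 were called higher and 2 lower in GFP-positive cells, and 4 and 1 in GFP-negative cells. SLC7A11, which imports cystine for glutathione synthesis, rose from 0.817 ± 0.129 to 39.0 ± 7.05 CPM in GFP-positive cells (log2 fold change 5.63, SE 0.25, adjusted p = 3.23e-19) and from 5.13 ± 1.06 to 81.8 ± 5.25 CPM in GFP-negative cells. CHAC1, which degrades glutathione, rose from 23.8 ± 5.69 to 169 ± 72.1 CPM in GFP-positive cells and from 18.9 ± 3.51 to 215 ± 185 CPM in GFP-negative cells. GCLM, a subunit of the enzyme that makes its precursor, rose from 4.57 ± 0.990 to 15.6 ± 7.83 and from 4.60 ± 1.20 to 21.5 ± 6.98 CPM. Of 19 genes for electron donors of the CYP enzymes and haem turnover, 2 were called higher and 1 lower in GFP-positive cells, and 2 were called higher in GFP-negative cells. HMOX1, which breaks down haem, rose from 3.11 ± 0.875 to 19.6 ± 2.95 CPM and from 6.38 ± 0.987 to 48.2 ± 17 CPM.

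Of 9 tested genes listed for the AHR complex and its targets, 2 were called higher in GFP-positive cells (12.8% of all genes). In GFP-negative cells 3 were called higher (8.59% of all genes). NQO1 and NFE2L2, the gene of NRF2, were called in both fractions, and the clock gene ARNTL in GFP-negative cells alone. NQO1, a quinone reductase and also a target of NRF2, rose from 5.98 ± 1.18 to 16.2 ± 1.62 CPM in GFP-positive cells (log2 fold change 1.5, adjusted p = 3.53e-07 in edgeR). In GFP-negative cells it rose from 22.6 ± 5.43 to 132 ± 23.1 CPM (log2 fold change 2.52, adjusted p = 6.8e-05 in edgeR, and 2.36 without control replicate 3). Of 8 partners of PXR and CAR tested, 1 was higher and 2 lower in GFP-positive cells, and 2 were lower in GFP-negative cells. The 2 that fell in both were the retinoid X receptors RXRG, from 433 ± 72.9 to 74.2 ± 33.6 CPM in GFP-positive cells, and RXRA, from 79.0 ± 4.88 to 26.4 ± 8.06 CPM. Among conjugating enzymes, 7 of 35 were tested in GFP-positive cells, with TPMT called higher and 3 lower, including SULT1A1 (4.17 ± 0.842 to 1.21 ± 0.307 CPM). In GFP-negative cells 1 of 10 was higher and 2 lower. Other oxidases, reductases and hydrolases gave 2 calls higher and 2 lower of 20 in GFP-positive cells and 4 and 1 of 22 in GFP-negative cells, among them MAOB, which fell from 0.972 ± 0.402 to 0.229 ± 0.0706 CPM in GFP-positive cells. Other drug carriers gave 2 higher and 1 lower of 12 in GFP-positive cells and 2 and 1 of 13 in GFP-negative cells. The same shares of all genes, 12.8% higher and 11.2% lower in GFP-positive and 8.59% and 9.75% in GFP-negative cells, stand beside the partner, conjugation, oxidase and carrier counts, and several of these counts lie near them.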

How the data were processed

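Poly(A) RNA of 12 sorted cell samples was sequenced, and the deposited table holds raw counts per gene symbol, which the authors made in Galaxy by joining lanes, mapping to hg38 with HISAT2 and counting with featureCounts. Tool versions and the strand setting of the counting are not given in the sources used here. All 28278 symbols were kept for library sizes, and 25763 matched the GENCODE v44 annotation of hg38, which gave exon lengths, GC content and coordinates. No annotated length was used for GSTT1.

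Counts were tested with edgeR 4.0.16 (R 4.3.3), by TMM scaling, filterByExpr and the quasi-likelihood F-test on the 2 groups compared, and Benjamini-Hochberg adjustment across every gene tested. The interaction used all 12 libraries and no minimum fold. Standard errors are the log2 fold change over the root of F. A gene was at the floor with at most 3 counts in every library. The scripts were tested on simulated data. Groups came from the group entry of the labels, since titles of treated samples also begin with the word for untreated. Labels do not say that replicates are separate differentiations, so p-values measure the spread between these samples. Over 13368 genes, the deviations of the paired sorts (equal treatment and number) correlated at 0.16 to 0.55, and these numbers were treated as pairing the sorts of a culture. The alternatives were DESeq2 1.42.0, other scalings, filters and fits, a replicate block, GC correction and leaving out each library.

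The members and lists were chosen with earlier results of these data known. Genes were named if they were transporters, receptors or partners, called in any comparison, at a mean of at least 1 CPM in a group, or silent. Of the other lists, at most 3 called genes per list with the largest change were eligible. Sequences are RefSeq promoter windows, and figures were drawn with matplotlib 3.10.9. Values of some genes are not reported here.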

Additional observations from a re-analysis of the deposited data

Results flagged for a closer look

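The response of ABCB1 to cis-chlordane differed between the sort fractions by the test of the interaction itself. Its log2 fold change was larger in GFP-positive cells by 2.10 (standard error 0.39, adjusted p = 0.0113, edgeR's quasi-likelihood test). In GFP-positive cells it rose from 1.35 ± 0.161 to 14.4 ± 3.53 CPM, and in GFP-negative cells, where the control level was higher, its log2 fold change was 1.29. Every treated library of both fractions lay above every control library of its fraction.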

How the results depend on the processing

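Over the alternatives run no result changed direction. The numbers of genes called kept within 1.5 times of those reported, with the following exceptions. In GFP-positive cells the genes called lower numbered 6 rather than 3 when all 12 libraries were fitted together. For the interaction, the genes with a smaller response in GFP-positive cells numbered 1 with DESeq2, 3 with the culture as a replicate block and 1 with the GC trend removed, against 0. Leaving out 1 library at a time gave 4 to 8 genes higher and 3 to 7 lower in GFP-positive cells, and 2 to 4 higher and 2 to 5 lower in GFP-negative cells. Between control fractions it gave 3 to 5 higher and 6 to 8 lower, and for the interaction 1 higher and 0 to 1 lower. The fewest higher calls in GFP-positive cells, 4, came without treated GFP-positive replicate 1, and the most lower calls, 7, without treated GFP-positive replicate 2 (6 without control GFP-positive replicate 3). In GFP-negative cells 2 were lower without treated replicate 1. The causes of these changes were not tested. Treated and control libraries with the same number correlated at -0.08 to 0.25, which overlaps the 0.16 to 0.55 of the sorts taken as pairs. Whether they share more than the number is not settled by these values. With that number as a replicate block, 7 genes were higher and 3 lower in GFP-positive cells, and 3 higher and 3 lower in GFP-negative cells. In the latter the block ended the lower calls of CYP4X1 and CYP46A1 and added CYP27C1 (-1.02, adjusted p = 0.0241). Between control fractions, where the numbers were taken to pair the sorts, the replicate block gave 4 and 7. Scaling by library size alone moved the median of all genes to 0.14 in GFP-positive cells and 0.20 for the interaction.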
